A study of Mus musculus with 16 samples.

Results

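The genes described here encode lysosomal enzymes and membrane proteins, and they are 45 of the 18167 genes measured. They were chosen by name from a list of lysosomal genes, and all 45 were in the table. The rule held no measured value, but earlier results of these data were known when the genes were chosen. Lysosomes break down proteins, sugar chains and lipids that reach them from the cell surface and from inside the cell, with soluble hydrolases that work in an acid lumen and membrane proteins that seal, acidify and empty the compartment. In the spinal cord every cell type has lysosomes, and microglia, the resident macrophages, are known for a large supply of them when they clear myelin and dying cells. By role the 45 genes fall into 12 proteases, 15 enzymes of sugar chains, 8 lipid enzymes and soluble cofactors, and a group of 10 made of 9 membrane proteins and Tfeb, a transcription factor known to drive lysosomal genes. GENCODE M21 placed the 45 genes on 16 chromosomes of mm10.

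RNA of the whole spinal cord was sequenced from 16 mice, with 1 library per mouse. The MO group held 5 mutant mice at end stage, 175 to 245 days old, and the MY group held 3 mutant mice of 50 days, both of the line Tg(Prnp-PFN1*G118V)838Kiaei on C57BL/6N. The WO group held 5 control mice, 3 of them 190 and 2 of them 294 days old, and the WY group held 3 control mice of 50 days, both of the line Tg(Prnp-PFN1)850Kiaei on C57BL/6N. Mice of all 4 groups therefore carried a human PFN1 transgene under the mouse Prnp promoter, with the G118V mutation in MO and MY and with the normal sequence in WO and WY, and each genotype was 1 transgenic line. All levels below are on the scale log2(1 + FPKM), FPKM being fragments scaled to transcript length and to the number of mapped reads, unless FPKM is named. A comparison written X vs. Y gives Y minus X, and a gene was up- or down-regulated when its FDR (Benjamini-Hochberg, over all 18167 genes) was at most 0.05 and its fold change was at least 1.5, a log2 fold change of 0.585.

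All mice were labelled male, and the library of MO5 went against that label. Xist, the RNA of the inactive X chromosome, stood at 3.21 in MO5 and lay between -0.36 and 0.37 in the other 15 mice. The Y-linked Ddx3y stood at 1.95 in MO5 against 4.06 to 4.74 elsewhere, and Eif2s3y at 1.82 against 3.66 to 4.63. The total counts of up- and down-regulated genes among these 45 lysosomal genes, called members below, are therefore given with and without MO5. Counts of members by role and by other rules are given with MO5 included. The labels also name 2 library batches: MO4, MO5, WO4 and WO5 were batch 2 and the other 12 mice batch 1, so that every young mouse was in batch 1 and both WO mice of 294 days were in batch 2. Genes of spinal cord position were present in every mouse, the most abundant being Hoxb8 at 5.44 to 5.89 in MO and 5.64 to 5.83 in WO. Of the 5 position genes Hoxc8 differed by -0.43 (SE 0.11, FDR 0.0151) and Hoxd10 by 0.41 (SE 0.13, FDR 0.0406) in WO vs. MO, short of the fold change threshold. Of 2 forebrain genes Emx1 was at 0.20 or below in all mice and Neurod6 was at 1.39 to 1.73.

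At end stage a large share of the lysosomal genes was higher in mutant spinal cord. In WO vs. MO 19 of the 45 members were up-regulated and 1, Ctsk, was down-regulated, where 4.08% and 0.517% of all genes were. In MY vs. MO 18 members were up-regulated and 1, again Ctsk, was down-regulated, where 4.11% and 0.787% of all genes were. At an unadjusted p below 0.05, in either direction, stood 37 members in WO vs. MO and 38 in MY vs. MO, where 38.5% and 36.7% of all genes did. In RNA of whole tissue, more cells of a type and more RNA per cell cannot be told apart. The 2 comparisons share the MO mice and so are not independent of each other. The median log2 fold change of the members was 0.41 in WO vs. MO and 0.36 in MY vs. MO, and that of all genes was 0.00 in both. Without MO5 the counts were 19 up and 1 down with a median of 0.44 in WO vs. MO, and 18 up and 1 down with a median of 0.39 in MY vs. MO, and the largest shift of any member was 0.16, for Lyz2.

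In WY vs. WO, the comparison of ages in control mice, limma found 0 members up- and 0 down-regulated, where 0.0495% and 0.204% of all genes passed. At an unadjusted p below 0.05 stood 9 members, where 13.5% of all genes did. WO held mice of both batches and WY mice of batch 1 only. In the fit over all mice, age and the batch adjustment therefore cannot be fully told apart. Within batch 1 alone 1 member, Lyz2, was up-regulated in WY vs. WO (0.74, FDR 0.0124 by limma). In WY vs. MY, the comparison of the genotypes at 50 days, limma found 0 members up- and 0 down-regulated, where 0.0055% and 0% of all genes passed, and 3 members stood at an unadjusted p below 0.05, where 7.16% of all genes did. The medians of the members were -0.05 and -0.00. The test of whether the change from young to old differed between the genotypes, (MO - MY) - (WO - WY), called 18 members higher and 0 lower, against 4.65% and 0.963% of all genes, and 19 and 0 without MO5.

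Summed over the 45 members, the level per mouse was 5201.6, 5940.3, 6719.7, 4457.9 and 4871.2 FPKM in MO1 to MO5. In WO1 to WO5 the sum was 2924.7, 2753.3, 2862.2, 2649.8 and 2639.7 FPKM, in MY1 to MY3 it was 2839.3, 2868.0 and 2864.6 FPKM, and in WY1 to WY3 it was 2902.3, 2859.6 and 2841.6 FPKM. Each MO mouse lay above all 11 other mice, and the ratio of the mean sums of MO and WO was 1.97. The roles took unequal parts in this. The ratio was 3.06 for the proteases, 2.04 for the enzymes of sugar chains, and 1.33 for both the lipid enzymes with cofactors and the membrane proteins with Tfeb. Without the gene with the largest difference in FPKM, the ratio was 2.35 for the proteases (without Ctsd), 1.23 for the sugar-chain enzymes (without Lyz2), 1.56 for the lipid group (without Psap) and 1.48 for the membrane group (without Lamp1). Psap, the precursor of the saposins that help enzymes reach their lipids, was the most abundant member in every WO, MY and WY mouse, at 663 to 733 FPKM. In MO, Ctsd was more abundant than Psap in each of the 5 mice, with 932 to 1736 FPKM against 745 to 939.6.

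**Figure D1:**
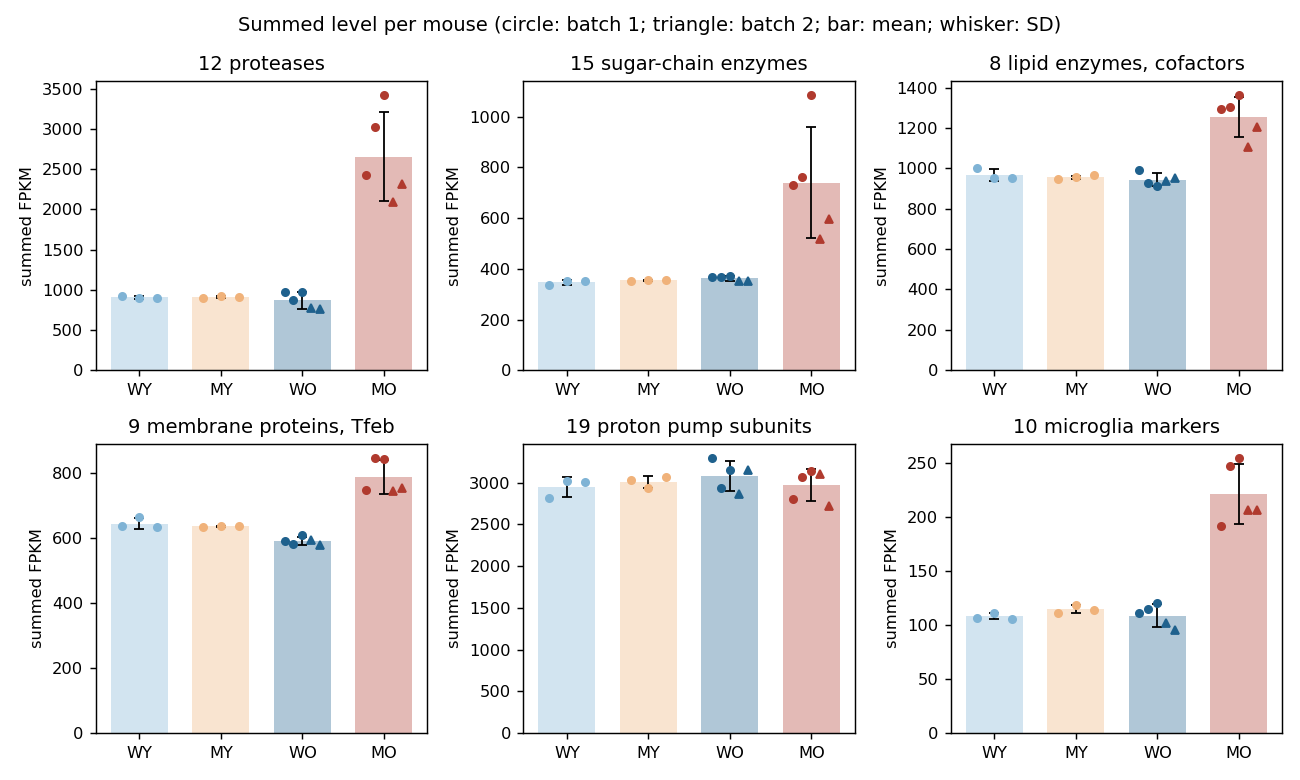
Summed level in FPKM of the 4 role groups of lysosomal genes, of 19 subunits of the lysosomal proton pump and of 10 microglia markers in each of the 16 mice (circles batch 1, triangles batch 2, bars the group mean, whiskers the SD). The 5 MO mice lie above all others for the proteases (2089 to 3427 FPKM), and for the pump subunits they overlap with the other groups (2718 to 3138 FPKM in MO and 2867 to 3302 in WO).

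The spread within MO was shared by many members. Among the 19 members up-regulated in WO vs. MO, MO3 had the highest level in 17 and MO2 in the other 2, while MO4 had the lowest in 14, MO1 in 4 and MO5 in 1. Over all 45 members MO3 was the highest in 27 and MO2 in 9, and MO4 was the lowest in 21 and MO1 in 13. MO3, of batch 1, was the oldest MO mouse at 245 days, and MO4, of batch 2, was 224 days old. Of the 19 members, 9 were lower in both batch 2 mice of MO than in its 3 batch 1 mice, where 9.1% of all genes were, and 10 were not. In WO 15 of the 19 were lower in both batch 2 mice, where 15.5% of all genes were. In WO the batch and the age of 294 days cannot be told apart. Within batch 1 alone 40 of the 45 members had a higher mean in MO than in WO, with a median difference of 0.43, and within batch 2 alone 37 did, with a median difference of 0.41.

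Groups that did not overlap were common as well. In 29 of the 45 members every MO mouse lay above all 11 other mice, which held for 7.58% of all genes, and these 29 included all 19 that were up-regulated in WO vs. MO. In 1 member, Npc1, every MO mouse lay below all others, which held for 2.66% of all genes. By the FDR without a threshold on the fold change, 32 members were higher and 3 lower in WO vs. MO, against 15% and 12.9% of all genes. In MY vs. MO 30 were higher and 3 lower, against 13.1% and 12.5%. For the difference of the age effects 29 were higher and 2 lower, against 10.5% and 7.19%.

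The proteases held the largest share of changed genes, with 8 of 12 up-regulated and 1 down-regulated in WO vs. MO, and the same counts in MY vs. MO. Of all genes 4.08% were up- and 0.517% down-regulated in WO vs. MO, and 4.11% and 0.787% in MY vs. MO. Ctsd, the aspartic protease cathepsin D (chr7:142375911-142388038), stood at 10.09, 10.50, 10.76, 9.87 and 10.07 in MO1 to MO5 and 8.36, 8.10, 8.33, 7.82 and 7.76 in WO1 to WO5. The young mice were nearly level, at 8.18, 8.19 and 8.18 in MY1 to MY3 and 8.21, 8.16 and 8.17 in WY1 to WY3. The MO mice were above the others by more than the whole spread of the other groups, and MO4 was the lowest and MO3 the highest of them. In WO vs. MO the log2 fold change was 2.18 (SE 0.18, FDR 2.41e-05), and in MY vs. MO it was 2.07 (SE 0.19, FDR 0.000314).

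Ctss, cathepsin S, a cysteine protease known for processing the invariant chain in antigen-presenting cells (chr3:95526786-95556403), stood at 8.58, 8.89, 8.97, 8.08 and 8.10 in MO1 to MO5 and 6.47, 6.70, 6.77, 5.92 and 6.04 in WO1 to WO5. The 50-day mice stood at 6.13, 6.29 and 6.24 in MY1 to MY3 and 6.18, 6.15 and 6.32 in WY1 to WY3. Here both old groups were split by batch, the batch 2 mice being lower in MO and in WO, and no MO mouse reached down to the 6.77 of WO3. Its difference was 2.14 (SE 0.22, FDR 7.98e-05) in WO vs. MO and 2.30 (SE 0.22, FDR 0.000331) in MY vs. MO. Ctsz, cathepsin Z, which removes amino acids from the carboxyl end (chr2:174427493-174439039), stood at 7.08, 7.43, 7.73, 6.88 and 7.02 in MO1 to MO5 and 5.48, 5.20, 5.44, 4.96 and 4.91 in WO1 to WO5. In young mice it was 5.17, 5.16 and 5.23 in MY1 to MY3 and 5.34, 5.19 and 5.12 in WY1 to WY3. MO and the other groups did not overlap, and the log2 fold change was 2.03 (SE 0.17, FDR 2.58e-05) in WO vs. MO and 2.04 (SE 0.18, FDR 0.000302) in MY vs. MO.

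Ctsh, an aminopeptidase, ranged over 4.97 to 5.56 in MO and 2.79 to 3.54 in WO, a log2 fold change of 2.01. Ctsc, which removes dipeptides and activates serine proteases of immune cells, ranged over 3.25 to 3.87 in MO and 1.59 to 2.09 in WO, a log2 fold change of 1.63. The abundant endopeptidases Ctsl and Ctsb gave 1.24 and 1.09, and Ctsa, a carboxypeptidase that also shields 2 of the sugar-chain enzymes, Glb1 and Neu1, gave 0.94. All 5 were up-regulated in MY vs. MO too, by 0.80 to 1.87. Tpp1, a tripeptidyl peptidase, and Lgmn, the asparagine-specific legumain, passed the FDR but not the fold change, at 0.40 (SE 0.06, FDR 0.000573) and 0.39 (SE 0.05, FDR 0.000404) in WO vs. MO. Ctsf, a cysteine cathepsin, had the smallest difference of the proteases. It stood at 5.36, 5.26, 5.34, 5.32 and 5.17 in MO1 to MO5 and 5.20, 5.04, 5.08, 5.21 and 5.29 in WO1 to WO5. Its MO and WO values overlapped, and the difference of 0.12 (SE 0.06, FDR 0.128) in WO vs. MO did not pass the test.

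Ctsk, cathepsin K, known for collagen breakdown in bone, went the other way (chr3:95499256-95509362). It stood at 1.33, 1.94, 2.03, 2.57 and 2.06 in MO1 to MO5 and 2.55, 2.55, 2.56, 2.79 and 2.68 in WO1 to WO5. At 50 days it was 2.86, 2.96 and 2.75 in MY1 to MY3 and 3.04, 2.70 and 3.08 in WY1 to WY3. MO4 reached into the WO range, the other 4 MO mice were below every WO mouse, and MO1 was the lowest of all. The log2 fold change was -0.64 (SE 0.18, FDR 0.0224) in WO vs. MO and -0.87 (SE 0.23, FDR 0.0244) in MY vs. MO, and the difference of the age effects was -0.55 (SE 0.27, FDR 0.170). In WO vs. MO the call missed the fold change without MO1 (-0.48, FDR 0.0150), and the FDR without WO4 (-0.60, FDR 0.0534) and without WO5 (-0.63, FDR 0.0511), and it missed both without the WO mice of 294 days (-0.57, FDR 0.126). With any 1 of the MY mice left out, the value in MY vs. MO was -0.92 to -0.82 and the FDR 0.0645 to 0.0868. Ctsk and Ctss lie next to each other on the plus strand of chromosome 3, 17423 bases apart with 0 protein-coding genes between them in GENCODE M21.

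**Figure D2:**
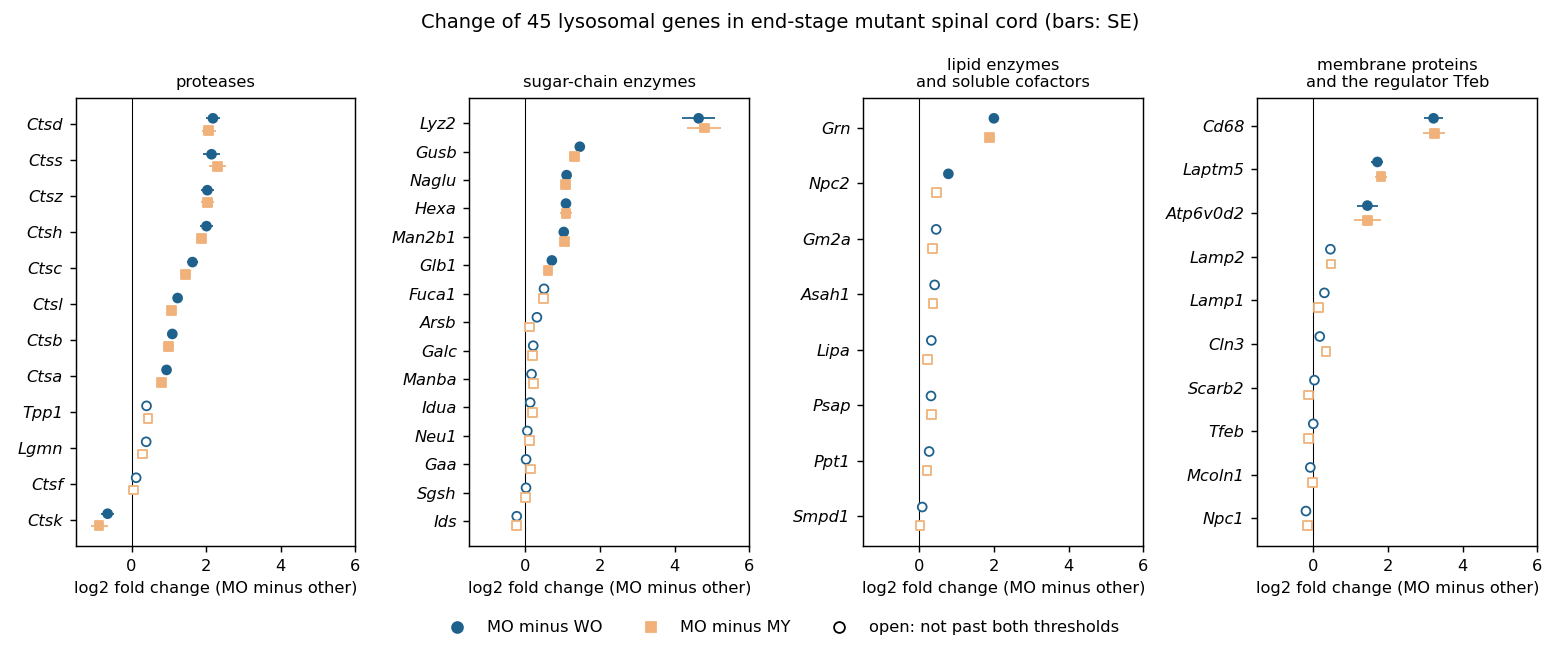
Log2 fold change with its SE for each of the 45 lysosomal genes by role, MO minus WO (circles) and MO minus MY (squares), filled where the FDR was at most 0.05 and the fold change at least 1.5. Lyz2 has the largest values (4.64 and 4.79), Ctsk the lowest (-0.64 and -0.87), and Tfeb lies at -0.00 and -0.13.

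Of the 15 enzymes of sugar chains 6 were up-regulated in each of WO vs. MO and MY vs. MO, where 4.08% and 4.11% of all genes were. By limma 0 were down-regulated in either, against 0.517% and 0.787% of all genes. At an unadjusted p below 0.05 stood 11 and 12 members, where 38.5% and 36.7% of all genes did. Lyz2, lysozyme M, which cuts bacterial cell walls and is known as a gene of macrophages and microglia (chr10:117277331-117282321), stood at 8.27, 8.34, 9.26, 6.93 and 7.42 in MO1 to MO5 and 3.81, 3.96, 3.94, 2.77 and 2.53 in WO1 to WO5. Its young levels were 3.23, 3.28 and 3.26 in MY1 to MY3 and 3.23, 3.06 and 3.20 in WY1 to WY3. MO and all others lay far apart, and both batch 2 pairs were lower than the batch 1 mice of their group. In WO vs. MO the log2 fold change was 4.64 (SE 0.45, FDR 4.85e-05), and in MY vs. MO it was 4.79 (SE 0.45, FDR 0.000357), the largest of the 45 members in each. In WY vs. WO the value was 0.24 (SE 0.35, FDR 0.855) over all mice. With the 3 WO mice of batch 1, all 190 days old, it was 0.74 with an FDR of 0.0124, which passed both thresholds. In MY vs. MO the difference of the means within batch 1 was 5.37.

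Lyz2 has a close copy, Lyz1, which lies 5475 bases away on chromosome 10. Their longest transcripts were identical at 1211 of 1262 aligned bases, 96%, so that reads could be shared between them and the split is uncertain. Lyz1 stood at 2.79, 3.04, 3.96, 2.06 and 2.85 in MO1 to MO5 and 0.65, 0.58, 0.80, 0.11 and 0.12 in WO1 to WO5. It was higher in MO too, with a log2 fold change of 2.49 (SE 0.29, FDR 0.000160) in WO vs. MO.

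Gusb, beta-glucuronidase (chr5:129989011-130003049), stood at 4.19, 4.54, 4.74, 4.15 and 4.24 in MO1 to MO5 and 3.06, 2.95, 3.07, 2.80 and 2.70 in WO1 to WO5. The 50-day mice stood at 3.09, 3.05 and 3.05 in MY1 to MY3 and 3.01, 3.04 and 3.07 in WY1 to WY3. The MO mice were all above the others, and the log2 fold change was 1.46 (SE 0.12, FDR 2.48e-05) in WO vs. MO and 1.31 (SE 0.13, FDR 0.000469) in MY vs. MO. Naglu, which acts on heparan sulfate (chr11:101070012-101077672), stood at 3.16, 3.21, 3.63, 3.03 and 3.31 in MO1 to MO5 and 2.26, 2.16, 2.16, 2.09 and 2.15 in WO1 to WO5. In young mice it was 2.21, 2.16 and 2.22 in MY1 to MY3 and 2.54, 2.17 and 2.44 in WY1 to WY3. MO lay above all other mice, and WY1 and WY3 lay above every WO and MY mouse. Its difference was 1.10 (SE 0.10, FDR 3.00e-05) in WO vs. MO and 1.07 (SE 0.12, FDR 0.000640) in MY vs. MO.

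Hexa, the alpha subunit of beta-hexosaminidase, gave 1.09, Man2b1, an alpha-mannosidase, 1.03, and Glb1, beta-galactosidase, 0.71 as log2 fold changes in WO vs. MO. In MY vs. MO the values were 1.09, 1.05 and 0.61, and Glb1 fell below the fold change without MO3 (0.54) or without MY1 (0.58). Fuca1, a fucosidase, Arsb, a sulfatase of dermatan sulfate, Galc, which degrades the myelin lipid galactosylceramide, and Manba, a beta-mannosidase, passed the FDR in WO vs. MO with log2 fold changes of 0.50, 0.31, 0.21 and 0.16, too small for the fold change threshold. Ids, which removes sulfate from heparan and dermatan sulfate, passed the FDR downwards, at -0.23 (SE 0.05, FDR 0.00392) in WO vs. MO and -0.23 (SE 0.05, FDR 0.00776) in MY vs. MO. Its MO levels were 6.31, 6.26, 6.18, 6.34 and 6.32, and its WO levels were 6.44, 6.56, 6.62, 6.44 and 6.51. All MO mice were below all WO mice for Ids, and WY1 with 6.27 lay among the MO mice. Idua, Neu1, Gaa and Sgsh, which act on heparan sulfate, sialic acid, glycogen and heparan sulfate, differed by 0.13, 0.05, 0.02 and 0.02 and did not pass. Sgsh, the smallest of these, stood at 2.20, 1.96, 2.30, 2.03 and 2.30 in MO1 to MO5 and 2.05, 2.05, 2.09, 2.27 and 2.25 in WO1 to WO5. The MO and WO values of Sgsh overlapped, and its difference turned to -0.06 under quantile normalization.

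Among the 8 lipid enzymes and soluble cofactors, 2 were up-regulated in WO vs. MO and 1 in MY vs. MO, where 4.08% and 4.11% of all genes were. In each comparison 7 stood at an unadjusted p below 0.05, where 38.5% and 36.7% of all genes did. Grn, the precursor of the granulins, a secreted glycoprotein taken up into lysosomes (chr11:102430315-102437048), stood at 6.45, 6.67, 6.80, 6.13 and 6.41 in MO1 to MO5 and 4.77, 4.68, 4.50, 4.23 and 4.29 in WO1 to WO5. At 50 days it was 4.61, 4.62 and 4.58 in MY1 to MY3 and 4.73, 4.53 and 4.57 in WY1 to WY3. MO did not overlap with any other group, and the log2 fold change was 2.00 (SE 0.14, FDR 2.07e-05) in WO vs. MO and 1.89 (SE 0.13, FDR 0.000204) in MY vs. MO.

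Npc2, which binds cholesterol in the lumen and passes it to the membrane protein Npc1 (chr12:84754562-84773152), stood at 5.97, 6.20, 6.33, 6.13 and 6.06 in MO1 to MO5 and 5.40, 5.26, 5.36, 5.43 and 5.36 in WO1 to WO5. Its young levels were 5.70, 5.70 and 5.64 in MY1 to MY3 and 5.95, 5.70 and 5.79 in WY1 to WY3. This was a gene with 3 levels, lowest in WO, between these in the young mice of both genotypes, and highest in MO. The log2 fold change was 0.78 (SE 0.06, FDR 2.41e-05) in WO vs. MO, 0.46 (SE 0.08, FDR 0.00357) in MY vs. MO, short of the fold change threshold, and -0.45 (SE 0.06, FDR 0.0222) in WY vs. WO. The difference of the age effects was 0.91 (SE 0.10, FDR 6.58e-05). With Lamp1 at -0.20 (SE 0.04, FDR 0.0424), Npc2 was 1 of 2 members that passed the FDR alone in WY vs. WO, both lower in WO, while 0 passed it upwards by limma. Of all genes 0.892% were lower and 0.231% higher by that rule. Npc1 itself (chr18:12189692-12236400) had MO levels of 5.00, 5.00, 4.97, 4.98 and 5.00, WO levels of 5.18, 5.18, 5.20, 5.20 and 5.18, MY levels of 5.18, 5.14 and 5.14 and WY levels of 5.03, 5.22 and 5.02. The difference was small but larger than the spread within MO and WO, at -0.20 (SE 0.03, FDR 0.000383) in WO vs. MO and -0.16 (SE 0.03, FDR 0.00806) in MY vs. MO, and it did not reach the fold change threshold.

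The other lipid genes moved less. Gm2a, the activator of ganglioside breakdown, gave 0.45, Asah1, an acid ceramidase, 0.41, Lipa, the lipase of cholesteryl esters, 0.32, Psap 0.31 and Ppt1, a thioesterase that removes palmitate from proteins, 0.26 as log2 fold changes in WO vs. MO. All 5 passed the FDR there, and in each of them every MO mouse lay above all 11 other mice. Smpd1, the acid sphingomyelinase, stood at 5.50, 5.61, 5.59, 5.73 and 5.63 in MO1 to MO5 and 5.63, 5.48, 5.48, 5.52 and 5.57 in WO1 to WO5. MO and WO overlapped, and the difference of 0.08 (SE 0.05, FDR 0.280) did not pass.

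Of the 9 membrane proteins and Tfeb, 3 were up-regulated in each comparison and 0 were down-regulated by limma, with 7 at an unadjusted p below 0.05 in WO vs. MO and 8 in MY vs. MO. Of all genes 4.08% and 4.11% were up-regulated, 0.517% and 0.787% were down-regulated, and 38.5% and 36.7% were at an unadjusted p below 0.05. Cd68, a heavily glycosylated membrane protein used to mark phagocytic macrophages and microglia (chr11:69664213-69666153), stood at 5.72, 6.04, 6.72, 5.11 and 5.73 in MO1 to MO5 and 2.88, 2.88, 2.91, 2.24 and 2.32 in WO1 to WO5. The 50-day mice stood at 2.56, 2.76 and 2.55 in MY1 to MY3 and 3.16, 2.86 and 2.67 in WY1 to WY3. The lowest MO mouse lay far above the highest of the others. The log2 fold change was 3.22 (SE 0.26, FDR 2.34e-05) in WO vs. MO and 3.24 (SE 0.30, FDR 0.000317) in MY vs. MO. Laptm5, a membrane protein of blood-derived cells and microglia (chr4:130913125-130936141), stood at 5.67, 5.90, 6.13, 5.27 and 5.62 in MO1 to MO5 and 4.24, 4.07, 4.19, 3.75 and 3.75 in WO1 to WO5. In young mice it was 3.84, 3.97 and 3.89 in MY1 to MY3 and 4.20, 3.71 and 3.72 in WY1 to WY3. Again MO lay apart, and the log2 fold change was 1.72 (SE 0.16, FDR 3.97e-05) in WO vs. MO and 1.81 (SE 0.17, FDR 0.000317) in MY vs. MO.

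Atp6v0d2, a form of the d subunit of the proton pump known from osteoclasts and macrophages (chr4:19876841-19922605), stood at 1.41, 1.39, 2.68, 0.85 and 1.02 in MO1 to MO5 and 0.06, 0.05, 0.02, -0.01 and -0.01 in WO1 to WO5. At 50 days it was 0.02, 0.05 and 0.02 in MY1 to MY3 and 0.05, 0.07 and 0.05 in WY1 to WY3. It was close to 0 in all 11 mice outside MO and present in each MO mouse, with MO3 far above the other 4. Values below 0 appeared with the batch adjustment, since log2(1 + FPKM) itself cannot be negative. In WO vs. MO the log2 fold change was 1.45 (SE 0.28, FDR 0.00337), and in MY vs. MO it was 1.44 (SE 0.36, FDR 0.0206). Leaving out any 1 of the MY mice, the value in MY vs. MO stayed at 1.44 to 1.45 and the FDR was 0.0647 to 0.0730. The call for the difference of the age effects was lost without the WO mice of 294 days (1.45, FDR 0.0542).

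Lamp1 and Lamp2, the main glycoproteins lining the lysosomal membrane, passed the FDR but not the fold change in WO vs. MO, at 0.30 and 0.46. Lamp1 gave 0.13 (SE 0.05, FDR 0.0935) in MY vs. MO and did not pass there, and Lamp2 gave 0.47 (SE 0.07, FDR 0.00162). Under quantile normalization the MY vs. MO value of Lamp1 turned to -0.0061. Cln3, whose loss causes a storage disease, gave 0.17 (SE 0.07, FDR 0.107) in WO vs. MO and 0.34 (SE 0.08, FDR 0.0124) in MY vs. MO, where it passed the FDR but not the fold change. Scarb2, the receptor that carries glucocerebrosidase to lysosomes, gave 0.03, and Mcoln1, a cation channel, gave -0.08, and neither passed. Tfeb stood at 3.14, 3.34, 3.55, 3.51 and 3.68 in MO1 to MO5 and 3.57, 3.32, 3.31, 3.46 and 3.59 in WO1 to WO5. Its young levels were 3.52, 3.65 and 3.55 in MY1 to MY3 and 3.78, 3.52 and 3.83 in WY1 to WY3. The Tfeb values of MO and WO lay over each other, with a difference of -0.00 (SE 0.10, FDR 0.994) in WO vs. MO and -0.13 (SE 0.11, FDR 0.465) in MY vs. MO. These are RNA levels, the activity of the protein was not measured, and the part of Tfeb in the member results was not tested.

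**Figure D3:**
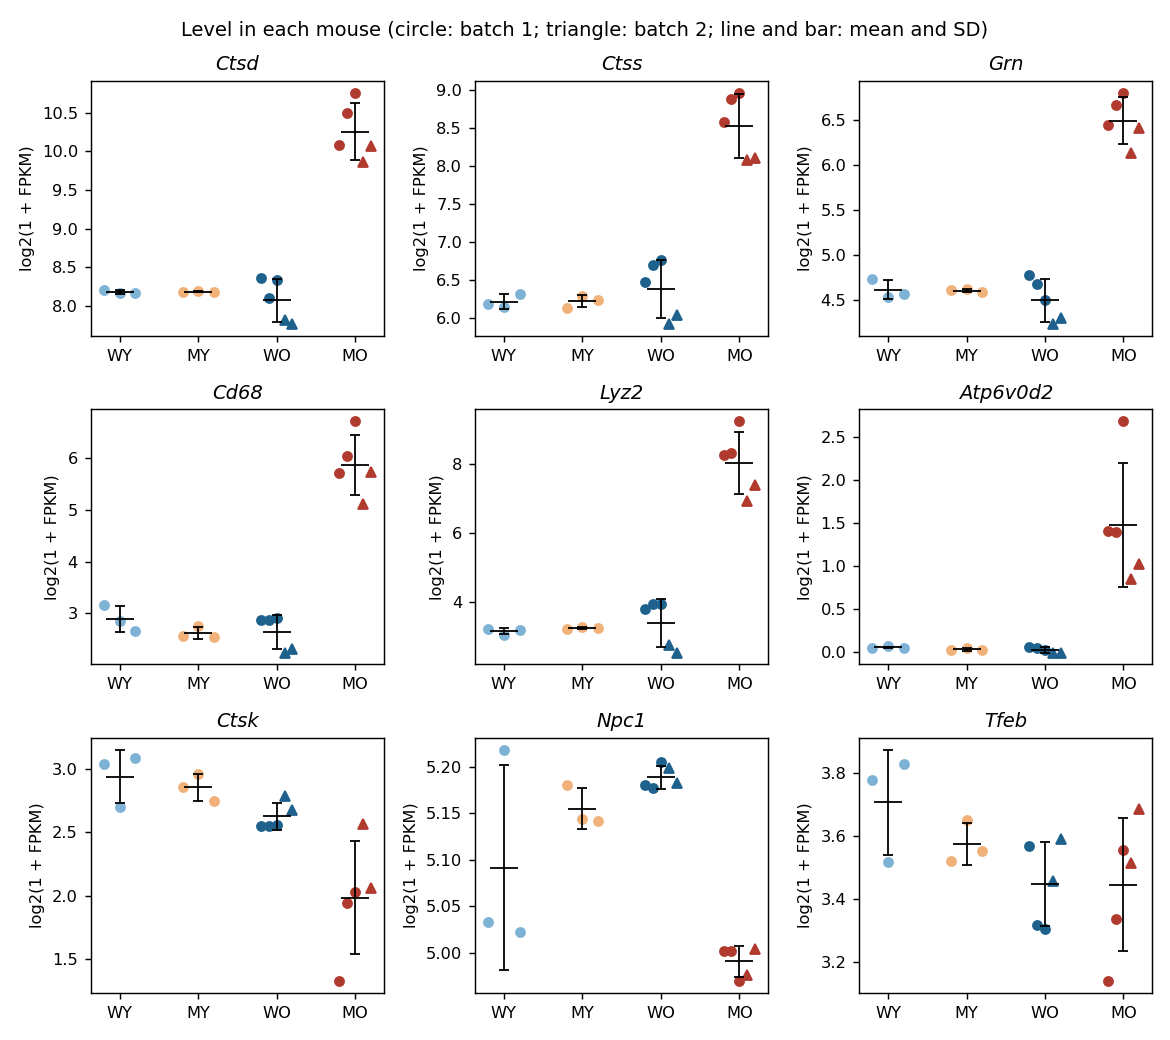
Level as log2(1 + FPKM) of 9 lysosomal genes in each mouse by group (circles batch 1, triangles batch 2, line and bar the group mean and SD). Ctsd, Ctss, Grn, Cd68, Lyz2 and Atp6v0d2 were higher in every MO mouse than in all others, Npc1 was lower in every MO mouse, Ctsk was lower in 4 of 5 MO mice than in any WO mouse, and the Tfeb values of MO (3.14 to 3.68) and WO (3.31 to 3.59) overlapped.

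Other genes of the lysosome were looked at in the same fits, 92 of 93 listed being in the table. Of these 13 were up- and 0 down-regulated by limma in WO vs. MO, and 14 and 0 in MY vs. MO, with 53 and 54 at an unadjusted p below 0.05. Of all genes 4.08% were up- and 0.517% down-regulated in WO vs. MO and 4.11% and 0.787% in MY vs. MO, and 38.5% and 36.7% were at an unadjusted p below 0.05. Without MO5 the counts were 13 and 0, and 15 and 0. Of 28 further hydrolases 6 were up-regulated in each comparison. Among them was the acid nuclease Dnase2a, at 1.32 (SE 0.12, FDR 3.97e-05) in WO vs. MO. Of 19 further membrane proteins 3 were up-regulated in each, led by Gpnmb, a glycoprotein of phagocytes, with levels of 5.53, 5.10, 6.53, 3.41 and 4.86 in MO1 to MO5 and 0.23 to 1.01 in WO. The log2 fold change of Gpnmb was 4.39 (SE 0.47, FDR 8.81e-05), and that of Slc11a1, a metal transporter of phagocyte lysosomes, was 2.07 (SE 0.17, FDR 2.48e-05).

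Of the 19 subunits of the proton pump listed besides Atp6v0d2, 2 were up-regulated in WO vs. MO, where 4.08% of all genes were. These were Tcirg1, the a3 subunit, at 0.83 (SE 0.10, FDR 0.000199), and Atp6v0e at 0.61 (SE 0.12, FDR 0.00426). The call of Atp6v0e in WO vs. MO was lost without MO1, MO2, WO4 or WO5, with values of 0.52 to 0.58, within batch 1 (0.44) and without the WO mice of 294 days (0.41). Of 9 genes of sorting to the lysosome, such as the mannose 6-phosphate receptor M6pr, limma called 0 in WO vs. MO and 0 in MY vs. MO, with 6 and 7 at an unadjusted p below 0.05. Of 13 genes of lysosomal gene regulation and nutrient sensing, limma also called 0 in each, with 3 and 4 at an unadjusted p below 0.05, where 38.5% and 36.7% of all genes were. Of 4 inhibitors of cathepsins 2 were up-regulated in WO vs. MO and 3 in MY vs. MO, where 4.08% and 4.11% of all genes were. Cstb was called in MY vs. MO but not in WO vs. MO, and its call was lost without MY1 (0.57). Cst7, cystatin F, a cystatin of immune cells, stood at 4.93, 5.56, 6.17, 4.20 and 4.75 in MO1 to MO5 and 0.91, 0.59, 0.73, -0.41 and -0.12 in WO1 to WO5. MO and WO lay far apart for Cst7, and the log2 fold change was 4.78 (SE 0.37, FDR 2.16e-05). Cst3, cystatin C, gave 0.61 (SE 0.10, FDR 0.00101), and it lost its call under quantile normalization (0.09) and without MO2 (0.56), MO3 (0.58), WO4 (0.56) or WO5 (0.56), within batch 1 (0.54) and without the WO mice of 294 days (0.48).

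Markers of some cell types were also higher in MO. The counts of markers at an unadjusted p below 0.05 stand against 38.5% of all genes in WO vs. MO and 36.7% in MY vs. MO. Those of up-regulated markers stand against 4.08% and 4.11% of all genes, and those of down-regulated markers against 0.517% and 0.787%. Of 10 microglia markers 6 were up-regulated in WO vs. MO and 7 in MY vs. MO, and 0 were down-regulated by limma, with 8 at an unadjusted p below 0.05 in each. Their summed level was 191, 248, 255, 206 and 207 FPKM in MO1 to MO5 and 111, 115, 121, 102 and 95.1 FPKM in WO1 to WO5. In MY1 to MY3 it was 111, 119 and 114.3 FPKM, and in WY1 to WY3 it was 107, 111 and 106 FPKM. The microglia sum was thus higher in each MO mouse than in all others, with a ratio of MO to WO of 2.04. The most abundant marker was Csf1r, a growth factor receptor of microglia, at 5.91 to 6.23 in MO and 4.61 to 4.98 in WO, a log2 fold change of 1.28 (SE 0.09, FDR 1.50e-05). The markers were not alike, Aif1 giving 1.75 (SE 0.23, FDR 0.000305), P2ry12, a purine receptor of resting microglia, 0.10 (SE 0.12, FDR 0.623) and the transcription factor Sall1 -0.01 (SE 0.07, FDR 0.964). None of the 10 was below 0.1 in every mouse. The median log2 fold change in WO vs. MO was 1.00 for the 10 markers and 0.41 for the 45 members, and the largest was 1.75 for the markers and 4.64 for the members. The part of microglia in the member results was not tested.

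Of 6 astrocyte markers 3 were up-regulated in WO vs. MO and 2 in MY vs. MO. The most abundant was Gfap, the filament protein of reactive astrocytes, with a log2 fold change of 1.60 (SE 0.10, FDR 1.46e-05) in WO vs. MO, and the summed level was 2705, 3489.9, 3134, 2587 and 2775 FPKM in MO1 to MO5 and 1149 to 1383 FPKM in WO. Of 5 markers of border macrophages limma called 0 in either comparison, with 3 at an unadjusted p below 0.05 in each. Their sum was 2.39, 2.87, 3.51, 2.82 and 2.73 FPKM in MO1 to MO5 and 1.19 to 2.45 FPKM in WO, with Pf4 the most abundant. Of 5 monocyte markers 1, Fn1, was up-regulated in each, and Fn1 was also the most abundant. The sum of these 5 genes was 7.76, 10.2, 11.4, 8.51 and 11.5 FPKM in MO1 to MO5 and 3.41 to 8.25 FPKM in WO, and it was mostly Fn1. Taken from the mean log2 level in MO, Fn1 was 9.31 FPKM and Ly6c2, Ccr2, Chil3 and Plac8 were 0.07 to 0.18 FPKM. Fn1 in MO1 (3.07) was below that in WO1 (3.15). Ccr2, the chemokine receptor of monocytes, reached at most 0.18 in any MO mouse. For 5 T cell markers limma called 0 in either comparison, with 2 and 1 at an unadjusted p below 0.05, and their sum reached 0.627 FPKM at most. For 5 neutrophil markers limma called 0 in either, with 1 and 0 at an unadjusted p below 0.05, and their sum was 0.895 to 8.40 FPKM in MO and 3.49 to 36.998 FPKM in WO, S100a8 being the most abundant. The part of these cells in the member results was not tested.

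Of 6 motor neuron markers 1, Chat, the enzyme that makes acetylcholine, was down-regulated in WO vs. MO, at -0.67 (SE 0.06, FDR 3.13e-05), where 0.517% of all genes were. In MY vs. MO limma called 0 of the 6, where 0.787% of all genes were down-regulated, with 4 at an unadjusted p below 0.05. All 6 had negative values in both, with medians of -0.49 and -0.31. By the FDR alone 4 were lower in each, against 12.9% and 12.5% of all genes. For the difference of the age effects 3 were called lower, against 0.963%. The summed level of the 6 markers was 104, 108, 87.1, 113.996 and 98.1 FPKM in MO1 to MO5 and 121 to 149 FPKM in WO, with Prph the most abundant. The part of motor neurons in the member results was not tested.

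For 4 Schwann cell and 4 meningeal fibroblast markers limma called 0 in WO vs. MO and in MY vs. MO. At an unadjusted p below 0.05 there were 0 in WO vs. MO, and in MY vs. MO 1 Schwann cell marker, Pmp2, a lipid-binding protein of myelin, at -0.32 (SE 0.06, FDR 0.00460), and 0 meningeal fibroblast markers.

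The promoters of the members were searched for the letters of known sites. Of the 45 members 40 had a promoter in the RefSeq table on GRCm38.p6 (250 bases before to 50 after a RefSeq start of the gene), and Ctsb, Ctsh, Asah1, Npc1 and Atp6v0d2 had none. The E-box CACGTG, which reads the same on both strands, was found in 12 of the 40 members, Ctsa, Ctsd, Ctsf, Ctsl, Lgmn, Gaa, Glb1, Naglu, Sgsh, Lamp1, Cln3 and Mcoln1. It was found in 8.09% of the 27025 genes with a promoter. Of the 16 members with a promoter that were up-regulated in WO vs. MO 5 held it, and of the other 24 members 7 did. Its longer form TCACGTGA, the core of the element bound by the TFEB family, contains CACGTG and was found in 4 members, Ctsa, Ctsd, Cln3 and Mcoln1, against 1.12% of all genes. Of these Ctsa and Ctsd were up-regulated, and Cln3 and Mcoln1 did not pass. The letters GAGGAAGT of the PU.1 site, a factor of macrophages and microglia, were searched on both strands. They were found in 3 of the 40 members (7.5%), Ctsc, Ctss and Gusb, against 3.69% of all genes. Of the 16 up-regulated members with a promoter 3 held them, and of the other 24 members 0 did. With 3 matches no link to the calls can be drawn, and none was tested. A match in these letters is a description and was not tested for binding.

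The matches to TCACGTGA are shown because the genes that hold them include both up-regulated genes and genes that did not pass, with the match in capitals and 11 bases on each side, on the strand of the gene. They come from chr2:164833749-164833778 and chr2:164833766-164833795 (plus strand) for Ctsa, whose windows overlap, chr7:142387908-142387937 (minus) for Ctsd, chr7:126583340-126583369 (minus) for Cln3 and chr8:3500462-3500491 (plus) for Mcoln1. Distances are from the RefSeq start of the promoter that holds the match, and some genes have more than 1 such promoter. The GENCODE M21 genes of Ctsa, Ctsd, Cln3 and Mcoln1 begin further upstream, so that these windows lie inside them.
Ctsa, 13 bases before the RefSeq start: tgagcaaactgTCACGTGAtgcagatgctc
Ctsa, 4 bases after the RefSeq start: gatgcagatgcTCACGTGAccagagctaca
Ctsd, 99 bases before the RefSeq start: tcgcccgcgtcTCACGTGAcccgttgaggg
Cln3, 122 bases before the RefSeq start: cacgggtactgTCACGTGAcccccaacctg
Mcoln1, 46 bases before the RefSeq start: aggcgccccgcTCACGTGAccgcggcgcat

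The matches to the PU.1 letters in the members are shown as well, in the same way, for the 3 genes that held them. All lay on the strand opposite to the gene and are written here along the gene as ACTTCCTC in capitals. They come from chr7:88277923-88277952 (plus strand) for Ctsc, chr3:95526773-95526802 (plus) for Ctss and chr5:130003000-130003023 (minus, cut short by the end of the promoter) for Gusb.
Ctsc, 151 bases before the RefSeq start: gtcactaactaACTTCCTCaggccacctcg
Ctss, 2 bases before the RefSeq start: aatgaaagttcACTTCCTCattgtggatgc
Gusb, 37 bases after the RefSeq start: gacttcaagcgACTTCCTCtttct

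The values rest on 3 to 5 mice per group, and each genotype was a single transgenic line. The young mice were all of batch 1, and the WO mice of 294 days were all of batch 2. In WY vs. WO and MY vs. MO over all mice, age and the batch adjustment therefore cannot be fully told apart. The ages of the MO mice ranged from 175 to 245 days and those of the WO mice from 190 to 294 days, so that the old groups were not matched in age. The number of reads behind each gene is unknown. RNA levels were measured, not enzyme activity or protein. The table holds 1 value per gene, so that transcript forms were not compared.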

How the data were processed

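Whole spinal cord mRNA of 16 mice was sequenced with a stranded kit. The log2 values used here were made by the authors and deposited as 1 table: Trimmomatic trimmed the reads, TopHat mapped them to mm10, Cufflinks gave FPKM, 1 was added, genes at 0 in at least 8 mice were removed, and ComBat (sva) adjusted for the 2 library batches. Versions, annotation and ComBat covariates are not given in the sources used here. The table held 18167 genes, with 915 values below 0 after the adjustment. How many reads lie behind a gene is unknown, and the spread over mice stands for precision.

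Groups came from the labels. Each comparison was fitted on its own groups with limma 3.58.1 (lmFit, eBayes, two-sided) in R 4.3.3, on all genes, and the difference of the age effects on all 16 mice. The procedure was tested on simulated data. FPKM sums were taken after undoing the log2, with values below 0 set to 0. Positions came from GENCODE M21, promoters from RefSeq, with Python 3.11.15, pandas 2.3.3, Biopython 1.88 and matplotlib 3.10.9.

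The members and the lists were chosen with earlier results of these data known. Values per mouse are given, in each role, for the 3 members with the largest change among those called and the 1 with the smallest in WO vs. MO, for called decreases, Tfeb and Atp6v0d2. In the other lysosomal lists the 2 largest called genes are named, and in the marker lists the most abundant, except for items that are not reported here. Npc1, Ids, Lyz1 and further markers were chosen after their values were seen. Alternatives covered batch, samples in the fit, a filter on low values, a pseudocount of 0.1, quantile normalization, an intensity trend, the call rule, the age of the controls, the replicate number and each single mouse.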

Additional observations from a re-analysis of the deposited data

Results flagged for a closer look

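In each of 90 groups of 5 mice, a member in MO or WO, the mouse farthest from the rest was compared with the spread of its group, and chance picks about 1 in 20 such groups. It picked 2 of 90. Arsb, a sulfatase, stood at 4.84 in MO1 and at 4.90 to 4.93 in the other MO mice. Ppt1, a thioesterase, stood at 5.94 in WO4 and at 5.98 to 5.99 in the other WO mice. Both gaps are small on the log2 scale.

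The change from young to old differed between the genotypes for 18 members by limma, tested as (MO - MY) - (WO - WY) over all 16 mice, with each value positive. Among proteases the difference was 0.97 for Ctsa, 1.05 for Ctsb, 1.58 for Ctsc, 2.18 for Ctsd, 1.93 for Ctsh, 1.31 for Ctsl, 2.14 for Ctss and 2.07 for Ctsz. Among enzymes of sugar chains it was 4.54 for Lyz2, 1.08 for Hexa, 1.44 for Gusb, 1.06 for Man2b1 and 1.29 for Naglu. It was 2.00 for Grn, 0.91 for Npc2, 3.49 for Cd68, 1.69 for Laptm5 and 1.47 for Atp6v0d2. The FDR ranged from 4.43e-05 for Grn to 0.0182 for Atp6v0d2.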

How the results depend on the processing

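The counts of up-regulated members in WO vs. MO and MY vs. MO stayed within 1.5 times their value under all alternatives tried except the FDR alone. With the FDR alone, 32 members were higher and 3 lower in WO vs. MO, with 38 and 8 of the other lysosomal genes. In MY vs. MO it gave 30 and 3 members, with 36 and 6 of the other lysosomal genes. It gave 2 lower members in WY vs. WO, and 29 higher and 2 lower members for the difference of the age effects. Without the WO mice of 294 days, members lower in WO vs. MO were 0, Tfeb there was 0.0486, and 1 member was higher in WY vs. WO. Within batch 1 and with batch as a term, 1 member (Lyz2 within batch 1) was higher in WY vs. WO, and in MY vs. MO 1 other lysosomal gene (Arsg within batch 1, chosen after its values were seen) was lower, Smpd1 was -0.0275 and Mcoln1 3.58e-05.

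A replicate block gave the same values in MY vs. MO, namely 1 other lysosomal gene lower, Smpd1 -0.0275 and Mcoln1 3.58e-05. The correlation of mice with 1 number was -0.207 to 0.0913 in WO vs. MO, 0.0853 to 0.177 in MY vs. MO, -0.129 to 0.377 in WY vs. WO and -0.2 to -0.0194 in WY vs. MY. Each mouse correlated best with its own number in MY vs. MO, and not in the other 3. The labels name no pairs, and the numbers were not taken to pair the samples. Under quantile normalization Sgsh was -0.0615 in WO vs. MO and -0.0867 in MY vs. MO, Lamp1 -0.0061 and Mcoln1 0.0063 in MY vs. MO.

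With single mice left out, members lower were 0 to 1 in WO vs. MO, 0 to 1 in MY vs. MO and 0 to 1 for the difference of the age effects, and other lysosomal genes lower in MY vs. MO were 0 to 1. In WO vs. MO Gaa was -0.0114 to 0.0702, Tfeb -0.0615 to 0.0752, Sgsh -0.0195 to 0.0645 and Scarb2 -0.0205 to 0.0682. In MY vs. MO Sgsh was -0.0298 to 0.0543, Smpd1 -0.0110 to 0.0446 and Mcoln1 -0.0476 to 0.0253. None of these 6 members passed the test at any of these values, and the cause was not tested. Depth per gene is unknown, and its limit on low genes such as Atp6v0d2 was not tested.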
